A study of Mus musculus with 30 samples.

Results

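The genes described here encode 10 enzymes of glycolysis in mouse sperm: Hk1, Gpi1, Pfkp, Aldoart1, Gapdhs, Pgk2, Pgam2, Eno4, Ldhc and Ldhal6b. They were chosen by name, and a gene was counted as measured where a row of a sperm table carried its name. All 10 were measured among 16242 features in the table of sperm taken 24 h after the last injection, and 7 of 10 among 3082 features in the table of sperm taken after 46 days, which has no row for Ldhal6b, Eno4 or Pfkp. Adult C57Bl/6J males were injected intraperitoneally from 3 months of age with tesaglitazar, a dual agonist of the nuclear receptors PPARα and PPARγ, at 10 μg per kg (TESA) or with its vehicle, DMSO in saline (CTRL), 2 times per week for 4 weeks. Sperm swam out of the cauda epididymis and was treated with a lysis buffer against somatic cells. At 24 h, 4 TESA and 4 CTRL libraries were made from polyadenylated RNA, and at 46 days, 7 TESA and 7 CTRL libraries from total RNA depleted of rRNA. The time point was thus also the kind of library, and the 2 cannot be told apart. The study gives n as animals, and the labels do not link each library to a male; p-values measure the spread between these libraries, which may be technical in part. The comparison asks whether sperm RNA differed after activation of PPAR in the father.

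Glycolysis splits glucose into pyruvate and yields ATP and NADH, and lactate dehydrogenase turns pyruvate into lactate while it regenerates NAD. In sperm much of the pathway is bound to the fibrous sheath of the tail, far from the mitochondria of the midpiece, and it fuels motility. Several steps are run in spermatids and sperm by isozymes of their own. Gapdhs, Pgk2, Ldhc, Ldhal6b, Aldoart1 and Eno4 are expressed mainly or only in germ cells, and Pgk2, Ldhal6b and Aldoart1 are retrogenes, copies made from a spliced mRNA. Hk1 has transcripts specific to germ cells beside those of other tissues, and Gpi1, Pfkp and Pgam2 are not restricted to the germ line, Pgam2 being the muscle form of its enzyme. The RNA in mature sperm is mostly left from spermatids, since transcription has ceased by then.

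Libraries held 15337589 to 27709990 counts at 24 h and 4538102 to 13513816 at 46 days. At 46 days the 5 most abundant features took most counts in every library but KG8-14, and outside them library KG8-02 (TESA) kept 158820 counts and library KG8-14 (CTRL) 7119414. The 7 genes together had 328 counts in KG8-02 and 45600 in KG8-14, so values of KG8-02 and of KG8-12 (TESA, 701 counts) are the least precise. Levels are given as CPM, counts scaled by TMM, a factor for the bulk of features, to a library of 1e+06. Transcript lengths were not used here and CPM grows with length, so a place by CPM says how much of a library a gene took and levels are not compared between genes per length.

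The label was checked against markers. Of 16 genes of late spermatids and sperm, 15 were in the 46-day table and all 16 in the 24 h table, with Odf1 of the tail's outer dense fibres, Smcp of the mitochondrial capsule and the protamine Prm2 highest at 24 h, and Prm2, Oaz3 and Odf2 highest at 46 days. At 46 days no marker of leukocytes (0 of 15), epididymal epithelium (0 of 15), red blood cells (0 of 7), smooth muscle (0 of 7) or Sertoli and Leydig cells (0 of 9) had a row, and of 7 skeletal muscle genes there was 1, Ttn. At 24 h rows were present for 14 of 15 leukocyte genes, 9 of 15 of epididymal epithelium, 4 of 7 of red blood cells, 7 of 7 of smooth muscle, 2 of 7 of skeletal muscle and 1 of 9 of Sertoli and Leydig cells. The summed level of the epididymal genes at 24 h ran from 836 to 2258 CPM, with Crisp1 highest, and that of the leukocyte genes from 203 to 412 CPM, with Cd74 highest, against 4131 to 13649 CPM for the spermatid genes. Of the leukocyte genes Cd3e alone had no row at 24 h, and the epididymal genes without one included Lcn5, Lcn8 and Lcn9. At 46 days 8 of the 15 spermatid genes tested were higher in TESA and 7 lower, and Odf2 had the smallest unadjusted p (log2 fold change -0.25). At 24 h 7 of 16 were higher and 9 lower, with Crisp2 at the smallest unadjusted p (-0.69). Of the other lists at 24 h, 5 leukocyte genes were higher in TESA and 9 lower, 4 epididymal genes higher and 5 lower, 0 red blood cell genes higher and 4 lower, and 6 smooth muscle genes higher and 1 lower, with Krt18 (0.56), Hbb-bt (-0.35) and Cnn1 (1.29) at the smallest unadjusted p of the last 3 lists. Lyz2 and H2-Ab1, Wfdc10 and Adam7, the globins Hba-a2, Hbb-bs and Hba-a1, and Mylk, Tagln and Myh11 were among the highest of these lists. The red blood cell genes summed to 53.5 to 269.9 CPM, the smooth muscle genes to 41.1 to 110.2 CPM, the skeletal muscle genes to 10.7 to 44.9 CPM and Sox9, the Sertoli gene with a row, to 1.504 to 4.50 CPM. Ttn was lower in TESA by a log2 fold change of -0.73 at 24 h and of -0.09 at 46 days, Acta1 was under the count filter, and Sox9 stood at 0.36. None of these genes passed an adjusted p of 0.05 in edgeR. RNA of other cells was thus measured beside sperm RNA at 24 h, and its part in the levels below was not tested. At 46 days only 3082 features had a row, against 16242 at 24 h, and Gapdh, Pgk1 and Ldha had none either. A marker without a row at 46 days therefore does not show that its RNA was absent, and RNA of other cells could not be assessed there. In bulk samples fewer cells of a type and less RNA per cell cannot be told apart.

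The 10 genes spanned a wide range of CPM. At 24 h Hk1 took place 64 of 16242 features by mean CPM, Gpi1 place 157, Gapdhs 306 and Pgk2 348. Ldhc at place 1031 and Pgam2 at 1176 followed, then Ldhal6b at 4838, Aldoart1 at 6611, Pfkp at 7762 and Eno4 at 13045. At 46 days the order was the same for Hk1 (place 72 of 3082), Gpi1 (110), Gapdhs (458), Pgk2 (695) and Ldhc (1373), while Aldoart1 (2424) and Pgam2 (2500) stood last, with ranges that overlapped. In every library of both tables Hk1 had a higher CPM than Gpi1, except in KG8-13, and Gpi1 a higher CPM than Gapdhs. Gapdhs and Pgk2, neighbours in this order, had overlapping CPM ranges in both tables, as did Ldhc and Pgam2 at 24 h.

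**Figure D1:**
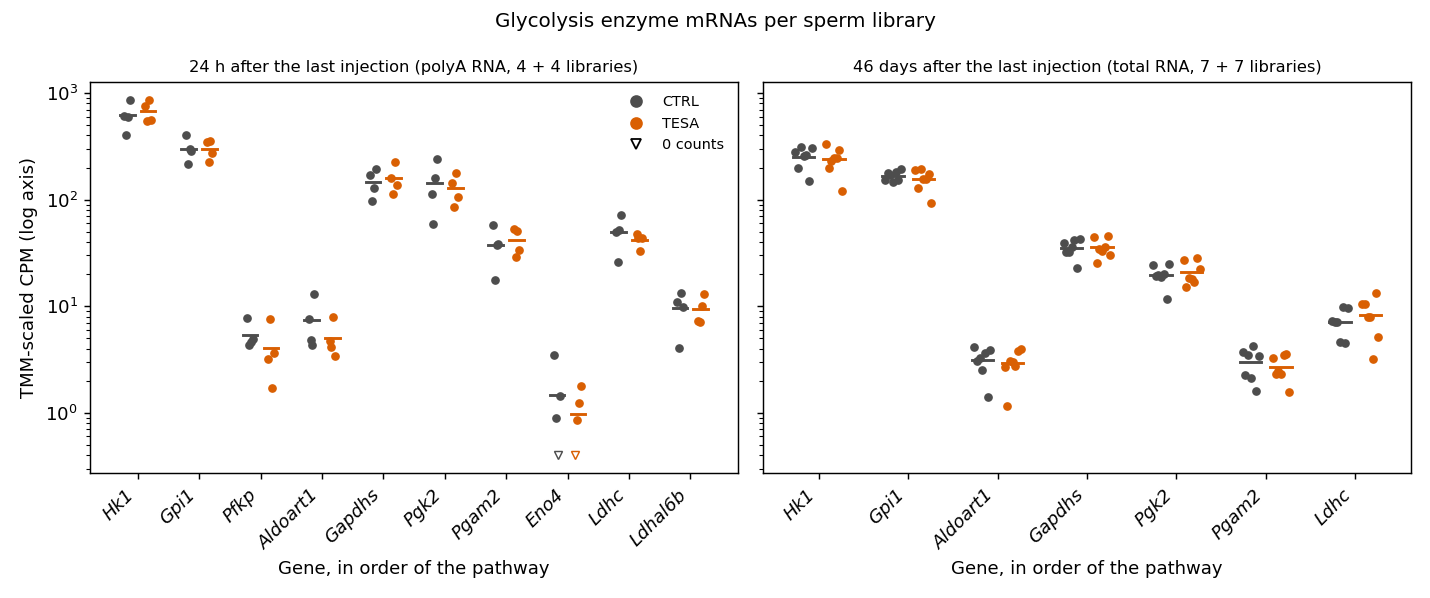
Level of each gene in each library, in CPM after TMM scaling on a log axis, at 24 h (left) and 46 days (right), with CTRL in grey and TESA in orange. Dots are libraries, bars are group means and open triangles are libraries with 0 counts; TESA and CTRL dots overlap for every gene shown, and Hk1 and Gpi1 stand highest in both panels.

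No difference between TESA and CTRL sperm passed the test for a glycolysis gene, which does not show that the levels were equal. The threshold was 0.05 after adjustment over all tested features. Of the 10 genes 0 reached it at 24 h with edgeR's quasi-likelihood method, where 0% of 13752 tested features did, and for 0 of the 10 the unadjusted p was under 0.05, against 372 features or 2.71%. The groups did not overlap for 0 of the 10 genes, against 449 features or 3.26%. At 46 days, 0 of 7 genes reached the threshold, where 0% of 2866 tested features did, the unadjusted p was under 0.05 for 0 of 7, against 152 features or 5.30%, and groups did not overlap for 0 of 7, against 1 feature or 0.0349%. By edgeR's exact test, DESeq2 and limma voom with quality weights 0 of the glycolysis genes passed at either time; over all features these tools passed 0, 0 and 0 at 24 h and 14, 0 and 0 at 46 days. By direction, 3 genes were higher in TESA and 7 lower at 24 h, with a median log2 fold change of -0.09 against -0.02 over all tested features. At 46 days 3 were higher and 4 lower, with a median of -0.03 against -0.03 over all tested features. These directions depend on the method: with library totals 5 genes were higher at 24 h and 0 at 46 days, and with limma voom and its quality weights, which change the test and weight libraries together, 5 were higher at 24 h. Scaling by library totals in place of TMM moved the median of all tested features to 0.19 at 24 h and to -1.09 at 46 days, and the median of the glycolysis genes went with it, to 0.09 and -1.06, with no gene past the threshold.

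**Figure D2:**
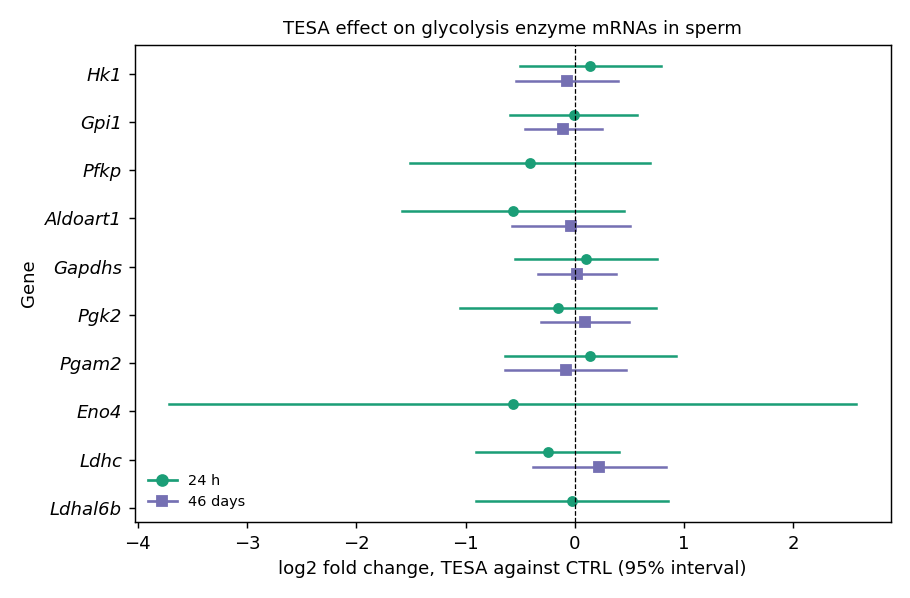
The log2 fold change of TESA against CTRL for each gene, with its 95% interval from edgeR's quasi-likelihood fit, for sperm at 24 h (green circles) and 46 days (violet squares); genes without a square had no row at 46 days. Every interval crosses 0, and that of Eno4 is the widest, from -3.71 to 2.57.

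The entry into the pathway is Hk1, hexokinase, which phosphorylates glucose. At 24 h Hk1 stood at 751, 551, 859 and 560 CPM in the TESA libraries ai_1, ai_3, ai_5 and ai_7, and at 606, 403, 599 and 856 CPM in the CTRL libraries ai_2, ai_4, ai_6 and ai_8. The groups overlapped, with the CTRL library ai_4 lowest of all 8. In TESA against CTRL the log2 fold change was 0.14 (SE 0.29, 95% interval -0.50 to 0.79). At 46 days Hk1 ran from 120 over a median of 245 to 332 CPM in TESA and from 149 over 263 to 313 CPM in CTRL, and the log2 fold change was -0.08 (SE 0.22, 95% interval -0.54 to 0.39). The lowest values were in KG8-12 (TESA) and KG8-13 (CTRL).

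Gpi1, glucose-6-phosphate isomerase, makes fructose-6-phosphate. At 24 h it stood at 344, 226, 351 and 273 CPM in TESA ai_1, ai_3, ai_5 and ai_7 and at 403, 214, 300 and 287 CPM in CTRL ai_2, ai_4, ai_6 and ai_8. The means of 299 and 301 CPM lay within the spread, with a log2 fold change of -0.01 (SE 0.26, 95% interval -0.59 to 0.57). At 46 days Gpi1 ran from 93.3 over 156 to 195 CPM in TESA and from 146 over 171 to 195 CPM in CTRL. KG8-12 and KG8-02, both TESA, lay under all CTRL libraries, and the log2 fold change was -0.11 (SE 0.17, 95% interval -0.46 to 0.24).

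Pfkp is the platelet form of phosphofructokinase, the committed step of glycolysis. It was measured at 24 h only, at 3.21, 7.61, 1.72 and 3.67 CPM in TESA ai_1, ai_3, ai_5 and ai_7 and at 7.77, 4.29, 4.66 and 4.91 CPM in CTRL ai_2, ai_4, ai_6 and ai_8. Of the TESA libraries 3 lay under all CTRL libraries and ai_3 lay near the top. A log2 fold change of -0.41 (SE 0.49, 95% interval -1.51 to 0.68) did not pass the test.

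Aldoart1 is a retrogene of aldolase A, the enzyme that splits fructose-1,6-bisphosphate. At 24 h it stood at 4.69, 4.11, 7.89 and 3.42 CPM in TESA ai_1, ai_3, ai_5 and ai_7 and at 7.60, 4.77, 4.32 and 13.0 CPM in CTRL ai_2, ai_4, ai_6 and ai_8. The CTRL library ai_8 was highest and the other values overlapped. Its log2 fold change was -0.57 (SE 0.45, 95% interval -1.58 to 0.45). At 46 days it ran from 1.164 over 2.97 to 3.95 CPM in TESA and from 1.41 over 3.24 to 4.16 CPM in CTRL, with a log2 fold change of -0.03 (SE 0.26, 95% interval -0.58 to 0.51). The lowest value, in KG8-02, rested on 1 count.

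Gapdhs, the sperm form of glyceraldehyde-3-phosphate dehydrogenase, is anchored to the fibrous sheath and is required for sperm motility. At 24 h it stood at 160, 114, 223 and 138 CPM in TESA ai_1, ai_3, ai_5 and ai_7 and at 171, 97.5, 128 and 195 CPM in CTRL ai_2, ai_4, ai_6 and ai_8. The highest value was in a TESA library and the lowest in a CTRL library, with both groups spread over the range between. Gapdhs had a log2 fold change of 0.10 (SE 0.29, 95% interval -0.55 to 0.75, adjusted p = 1.00 in edgeR's quasi-likelihood test). At 46 days Gapdhs ran from 25.6 over 34.4 to 45.8 CPM in TESA and from 23.0 over 35.7 to 43.1 CPM in CTRL. The group means were 35.7 ± 7.23 and 35.4 ± 6.91 CPM (SD, n = 7), and the log2 fold change was 0.02 (SE 0.17, 95% interval -0.34 to 0.38, adjusted p = 0.999 in edgeR's quasi-likelihood test). Changes inside this interval were not excluded.

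Pgk2, the retrogene of phosphoglycerate kinase, carries the first of the pathway's ATP-forming steps in sperm, where the X-linked Pgk1 is silenced in meiosis. At 24 h it stood at 144, 85.9, 176 and 107 CPM in TESA ai_1, ai_3, ai_5 and ai_7 and at 114, 59.4, 159 and 240 CPM in CTRL ai_2, ai_4, ai_6 and ai_8. The CTRL libraries held both the lowest and the highest value. Pgk2 had a log2 fold change of -0.16 (SE 0.40, 95% interval -1.05 to 0.74). At 46 days Pgk2 ran from 15.1 over 18.3 to 28.2 CPM in TESA and from 11.8 over 19.6 to 24.9 CPM in CTRL, with a log2 fold change of 0.09 (SE 0.19, 95% interval -0.31 to 0.50). KG8-13 (CTRL) was lowest and KG8-11 (TESA) highest.

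Pgam2, the muscle form of phosphoglycerate mutase, moves the phosphate of 3-phosphoglycerate. At 24 h it stood at 52.8, 29.2, 51.3 and 33.9 CPM in TESA ai_1, ai_3, ai_5 and ai_7 and at 57.6, 17.5, 37.8 and 38.5 CPM in CTRL ai_2, ai_4, ai_6 and ai_8. Its log2 fold change of 0.14 (SE 0.35, 95% interval -0.64 to 0.93) was within the spread. At 46 days its CPM ran from 1.58 to 3.54 in TESA and from 1.61 to 4.28 in CTRL, with a log2 fold change of -0.08 (SE 0.26, 95% interval -0.64 to 0.47).

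Eno4 is an enolase of the sperm tail. It was measured at 24 h only and was the scarcest of the 10 genes, with 0, 20, 25 and 77 counts in TESA ai_1, ai_3, ai_5 and ai_7 and 42, 11, 0 and 43 counts in CTRL ai_2, ai_4, ai_6 and ai_8. A count of 0 allows up to 3 counts, or 0.185 CPM in ai_1 and 0.146 CPM in ai_6, for counting error only. The log2 fold change of -0.57 had an SE of 1.41 and did not pass, and libraries of the same group differed by more than their depth.

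Ldhc, the testis form of lactate dehydrogenase, is the main isozyme of sperm and lies beside Ldha on chromosome 7. At 24 h it stood at 47.5, 43.2, 33.1 and 43.8 CPM in TESA ai_1, ai_3, ai_5 and ai_7 and at 49.8, 26.0, 51.4 and 71.7 CPM in CTRL ai_2, ai_4, ai_6 and ai_8. The TESA values lay inside the range of the CTRL values, and the log2 fold change was -0.25 (SE 0.29, 95% interval -0.90 to 0.41). At 46 days Ldhc ran from 3.22 over 7.97 to 13.3 CPM in TESA and from 4.52 over 7.18 to 9.83 CPM in CTRL. The highest values were in KG8-11, KG8-01 and KG8-02, all TESA, the lowest in KG8-05 (TESA), and the log2 fold change was 0.23 (SE 0.29, 95% interval -0.38 to 0.83, unadjusted p = 0.445 in edgeR's quasi-likelihood test). The value of KG8-02, 10.5 CPM, rested on 9 counts, and without that library the log2 fold change was 0.15.

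Ldhal6b, a retrogene of the lactate dehydrogenase family, was measured at 24 h only. It stood at 7.22, 7.09, 10.1 and 13.1 CPM in TESA ai_1, ai_3, ai_5 and ai_7 and at 10.9, 4.04, 13.3 and 9.85 CPM in CTRL ai_2, ai_4, ai_6 and ai_8. The log2 fold change was -0.02 (SE 0.39, 95% interval -0.90 to 0.85).

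The difference between the effects at 46 days and at 24 h was tested in edgeR as the interaction of treatment and experiment. Of 2680 features tested in both tables, 0 (0%) reached the threshold, and for 219 (8.17%) the unadjusted p was under 0.05. Neither held for any of the 7 glycolysis genes in both tables, with unadjusted p-values of 0.284 to 0.805. DESeq2 passed 14 features and limma voom 20 in the same comparison, none of them a glycolysis gene of the 7. For Ldhc, with a log2 fold change of 0.23 at 46 days and -0.25 at 24 h, the difference was 0.48 (SE 0.44).

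Libraries low in one of these genes were often low in others. At 46 days all 21 pairs of the 7 genes had a positive Pearson correlation of log2 CPM over the 14 libraries, with a median r of 0.52. For Gapdhs and Pgk2, r was 0.86 and Spearman's rho 0.74 (two-sided permutation tests, p = 0.00013 and p = 0.00361; adjusted over the 21 pairs 0.00199 and 0.0283). Without the 2 libraries farthest from the median of Gapdhs r was 0.70, and in libraries 1 to 10 alone 0.81. For Pgam2 and Hk1, r was 0.84 and rho 0.73 (two-sided permutation tests, p = 0.00019 and p = 0.00471; adjusted over the 21 pairs 0.00199 and 0.0283), with 0.65 without the 2 farthest libraries and 0.60 in libraries 1 to 10. Some pairs turned negative under these checks, and the others stayed positive. Without the 2 farthest libraries the r of Aldoart1 was -0.19 with Hk1 and -0.20 with Gpi1. In libraries 1 to 10 alone the r of Ldhc was -0.15 with Aldoart1 and -0.01 with Gapdhs. In all, 8 of 21 pairs passed an adjusted p of 0.05 by Pearson and 5 by both measures. Over all pairs of the 2866 tested features 48.4% had a positive r and 12.3% an r as high as the lowest of these 8, 0.60; these shares are a description, since pairs share libraries and genes. Gapdhs and Aldoart1 passed by Pearson (r = 0.73, permutation p = 0.00392; rho = 0.39, permutation p = 0.163; adjusted over the 21 pairs 0.0137 and 0.190), but without the 2 farthest libraries r was 0.20, so that the relation over all 14 rested on those libraries; in libraries 1 to 10 alone it was 0.70. The r of Hk1 and Gpi1 (r = 0.73, permutation p = 0.00547; rho = 0.50, permutation p = 0.0714; adjusted 0.0164 and 0.130) was 0.44 without the 2 farthest libraries and 0.35 in libraries 1 to 10. For Pgam2 and Gpi1 (r = 0.60, permutation p = 0.0177; rho = 0.48, permutation p = 0.0865; adjusted 0.0464 and 0.130) it was 0.36 and 0.29.

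At 24 h, 33 of 45 pairs were positive over 8 libraries, and 3 passed by Pearson and 2 by both measures, while over all pairs of the 13752 tested features 49.9% were positive and 0.278% had an r as high as the lowest of these 3, 0.92. For Pgam2 and Gpi1, r and rho were both 0.95 (two-sided exact permutation tests, p = 9.92e-05 and p = 0.00114; adjusted over the 45 pairs 0.00446 and 0.0257), and r was 0.97 without the 2 farthest libraries. For Gapdhs and Hk1, r was 0.92 and rho 0.95 (two-sided exact permutation tests, p = 0.00159 and p = 0.00114; adjusted 0.0268 and 0.0257), with 0.81 without the 2 farthest libraries. Pfkp had a negative r with 7 of the 9 other genes, all but Ldhc and Eno4, none past the threshold.

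The same libraries were low in the spermatid markers. At 46 days the summed level of the 7 glycolysis genes was lowest in KG8-12 (277 CPM), KG8-13 (345 CPM) and KG8-02 (382 CPM), and the summed level of the 15 spermatid markers was lowest in KG8-13 (458 CPM), KG8-12 (538 CPM) and KG8-02 (675 CPM). At 24 h CTRL ai_4 was lowest in both sums, at 831 and 4131 CPM, and CTRL ai_8 highest, at 1718 and 13649 CPM. Library ai_8 was also highest in the summed epididymal markers, at 2258 CPM with ai_6 next at 1487, and in those of red blood cells, at 269.9 CPM with ai_6 next at 153 CPM, and ai_4 was lowest in red blood cell markers, at 53.5 CPM, and next to lowest in epididymal ones, at 842 CPM. Leukocyte markers did not share this order, being highest in CTRL ai_2, at 412 CPM, with 250 CPM in ai_4 and 227 CPM in ai_8. Smooth muscle markers summed to 103.5 CPM in ai_4 and 75.7 CPM in ai_8, and were highest in TESA ai_5, at 110 CPM. TESA ai_5 was next to ai_8 in the glycolysis and spermatid sums, at 1715 and 12731 CPM. Since both extremes of these sums at 24 h were CTRL libraries, they widened the spread of that group. Scaling to the summed counts of the spermatid markers, chosen after seeing the data, left 0 glycolysis genes past the threshold in either table. What the shared levels rest on was not tested.

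The features outside the 10 genes whose log2 CPM was most like the mean of the scaled glycolysis genes at 46 days were Prm2 (r = 0.95), Odf2 (0.95), Odf1 (0.94), Clpb (0.94) and Spata18 (0.93), over 14 libraries and 7 genes. At 24 h they were Angel1 (r = 0.97), Cdv3 (0.97), RP24-87K15.4 (0.96), Tex44 (0.96) and Psme3 (0.95), over 8 libraries and 10 genes. All points share the library and its depth.

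For Gapdhs, Pgk2, Ldhc, Aldoart1 and Pgam2 the ratio of counts to those of another form of the same enzyme can be read within a library, free of scaling. At 24 h the ratio of Gapdhs to Gapdh was 2.32, 1.603, 2.30 and 1.44 in TESA ai_1, ai_3, ai_5 and ai_7 and 3.80, 2.32, 1.57 and 3.87 in CTRL ai_2, ai_4, ai_6 and ai_8. The log2 ratio was lower by 0.53 in TESA (two-sided exact permutation test, p = 0.2, adjusted 0.5 over 5 ratios, the smallest possible p being 0.0286). The ratio of Aldoart1 to Aldoa differed by -0.71 on the log2 scale (exact permutation p = 0.114, adjusted 0.5), and those of Pgk2 to Pgk1, Ldhc to Ldha and Pgam2 to Pgam1 by 0.10, 0.13 and 0.11 (exact permutation p = 0.8, 0.657 and 0.714). At 46 days Aldoart1 to Aldoa was the only such pair with both rows, at 0.15 in the median TESA and 0.17 in the median CTRL library, and differed by -0.16 (exact permutation p = 0.594), or by -0.55 in libraries 1 to 10 alone. Both differences include TESA KG8-02, whose ratio of 0.0588, the lowest, rested on 1 count of Aldoart1 and 17 of Aldoa. These ratios were chosen after seeing the data. Aldoart1 and Aldoa share sequence, and their estimated counts were not whole (by more than 0.01) in 7 and 8 of the 8 libraries at 24 h. At 46 days they were not whole in 13 and 14 of the 14 libraries, so that the split of reads between these genes is uncertain at both times. Counts of Gapdh at 24 h were not whole in 8 of the 8 libraries, those of Ldha in 7, of Ldhc in 5 and of Pgk1 in 2, while those of Gapdhs, Pgk2, Pgam2, Pgam1 and Ldhal6b were whole in every library.

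Of the body forms, Gapdh stood at 69.0, 71.0, 97.0 and 95.7 CPM in TESA ai_1, ai_3, ai_5 and ai_7 and at 45.04, 42.0, 81.4 and 50.5 CPM in CTRL ai_2, ai_4, ai_6 and ai_8 at 24 h. Its log2 fold change was 0.60 (SE 0.26, unadjusted p = 0.0442, adjusted p = 1.00 in edgeR's quasi-likelihood test). The other body forms had log2 fold changes of -0.27 for Ldha, -0.14 for Pgk1, -0.03 for Hk2, 0.01 for Ldhb, 0.11 for Pgam1, 0.21 for Aldoa, 0.32 for Eno1, 0.46 for Pfkl and 0.72 for Pfkm, and none passed. Pfkm had 0 counts in CTRL ai_4, and its value was 0.33 without that library and 1.27 without CTRL ai_6. Leaving out 1 library at a time turned the sign of Pgk1 (-0.34 to 0.01), Hk2 (-0.35 to 0.23) and Ldhb (-0.11 to 0.22). Without a turn of sign, Ldha (-0.43 to -0.13), Pgam1 (0.008 to 0.18), Aldoa (0.18 to 0.325), Eno1 (0.15 to 0.44) and Pfkl (0.41 to 0.56) moved. At 46 days only Aldoa (0.05) and Eno1 (0.69) had rows, and none passed; the value of Eno1 rested on TESA KG8-12 at 107 CPM, and without that library it was -0.12.

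The wider pathway was counted in the same way. Of 24 other glycolysis enzymes, which include the body forms, 19 were tested at 24 h, with 14 higher and 5 lower in TESA. Over all features 6569 of 13752 tested were higher. The 19 had a median log2 fold change of 0.16, against -0.02 over all tested features. An unadjusted p under 0.05 was found for 2 of the 19, Gapdh and Eno3, against 2.71% over all tested features, and 0 were past the threshold. Highest by CPM were the pyruvate kinase Pkm (203 in TESA and 196 in CTRL), the D-lactate dehydrogenase Ldhd (209 and 170) and triosephosphate isomerase Tpi1 (199 and 178), and the smallest unadjusted p was that of the enolase Eno3, whose log2 fold change was 0.90 (SE 0.38) and whose groups did not overlap, as for 3.26% of all tested features. At 46 days 4 were tested, Pkm, Tpi1, Eno1 and Aldoa, with 3 higher, 1 lower and 0 past the threshold. Eno1 had the smallest unadjusted p, 0.205, and without KG8-12 it was lower in TESA and Tpi1 went from 0.45 to 0.11. Of 15 genes of sugar and lactate transport 0 had a row at 46 days and 9 at 24 h, all 9 tested, with 5 higher, 4 lower and 0 past the threshold. Emb (60.7 in TESA and 72.6 CPM in CTRL) and Bsg (68.8 and 58.1), partners of the lactate carriers, and the glucose carrier Slc2a3 (34.5 and 34.1) were highest, and Slc2a1 had the smallest unadjusted p, 0.088.

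Of 15 regulators and side branches, 10 were tested at 24 h (5 higher, 5 lower, 0 past the threshold) and 2 at 46 days (1 higher, 1 lower, 0 past the threshold). Sord, which turns sorbitol into fructose, was highest in both tables (504 in TESA and 583 CPM in CTRL at 24 h, with medians of 86.1 and 104 at 46 days), followed by Pfkfb4, which sets the level of fructose-2,6-bisphosphate, and at 24 h by Mpi (11.0 and 10.7). The 46-day log2 fold change of Sord, 0.67, rested on TESA KG8-12 at 463 CPM and was 0.02 without it. Tigar had the smallest unadjusted p at 24 h, 0.141. Pfkfb4 at 46 days ran from 5.82 over 13.8 to 23.4 CPM in TESA and from 18.6 over 21.7 to 24.9 CPM in CTRL, and 6 of 7 TESA libraries lay under all CTRL libraries. The lowest TESA value rested on 5 counts. At 46 days 5.30% of all tested features had an unadjusted p under 0.05. The log2 fold change of Pfkfb4 was -0.62 (SE 0.23, 95% interval -1.11 to -0.12, unadjusted p = 0.0174), but it did not pass adjustment in edgeR's quasi-likelihood test over 2866 features, and at 24 h it was -0.31 (SE 0.51). The 24 h value of Pfkfb4 was -0.66 without CTRL ai_8 and turned to 0.06 without CTRL ai_2. Of 14 genes of pyruvate entry into mitochondria 12 were tested at 24 h, with 6 higher, 6 lower and 0 past the threshold. Pdk2 (42.7 in TESA and 32.3 CPM in CTRL), which switches pyruvate dehydrogenase off, Pdha1 (22.6 and 22.0) and Mpc2 (14.6 and 15.6) were highest, and Pdk2 had the smallest unadjusted p, 0.147. Pdha2, the testis form of a pyruvate dehydrogenase subunit, named after its values were seen, was lower in all 4 TESA (at most 3.21 CPM) than in all 4 CTRL libraries (at least 3.26 CPM), the only such gene of the 12, against 3.26% of all tested features. Its log2 fold change of -0.64 (SE 0.47) did not pass and was -0.38 without TESA ai_1. At 46 days Pdhb alone had a row and did not pass the count filter.

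On the GRCm38.p6 assembly Gapdhs (chr7:30729779-30744791), Gpi1 (chr7:34201327-34230336) and Ldhc (chr7:46861263-46878147) lie on chromosome 7, and Ldha (chr7:46842274-46855627) is the gene beside Ldhc. The retrogenes Pgk2 (chr17:40207018-40208609), Ldhal6b (chr17:5417323-5418767) and Aldoart1 (chr4:72850583-72852634) span 1592, 1445 and 2052 bases, against 16600 for Pgk1 and 5761 for Aldoa. RefSeq promoter windows of 300 bases matched 9 of the 10 genes, all but Aldoart1, with 12 windows in all. The windows were searched on both strands for the cAMP response element TGACGTCA, which binds the spermatid activator CREM among others, its half-site TGACG, which is part of it, the TATA box TATAAA and the GC box GGGCGG. TGACGTCA was in 0 of the 12 windows and in 1.79% of all 32851 windows of that length. TGACG was in 1 of 2 windows of Gapdhs and, at 2 places, in 1 of 2 of Ldhc, against 20.8% of all windows. TATAAA, in 13.6% of all windows, was in that of Ldhal6b, and GGGCGG, in 35.7%, in 1 of 2 of Ldhc and in those of Pfkp and Gpi1. The windows of Gapdhs and Pgk2, the pair with the highest Pearson r over all 14 libraries at 46 days, and of Ldhc are shown in lower case 5′ to 3′ on the gene's strand, with matches to any of the 4 motifs in capitals (minus strand, chr7:30743632-30743931 and chr17:40208560-40208859; plus strand, chr7:46861013-46861312).
Gapdhs: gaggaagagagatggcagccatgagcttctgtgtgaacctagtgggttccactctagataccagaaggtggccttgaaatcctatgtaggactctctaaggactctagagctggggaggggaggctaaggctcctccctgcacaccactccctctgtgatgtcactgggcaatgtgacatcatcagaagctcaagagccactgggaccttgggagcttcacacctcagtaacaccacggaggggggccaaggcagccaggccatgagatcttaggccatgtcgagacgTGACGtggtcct
Pgk2: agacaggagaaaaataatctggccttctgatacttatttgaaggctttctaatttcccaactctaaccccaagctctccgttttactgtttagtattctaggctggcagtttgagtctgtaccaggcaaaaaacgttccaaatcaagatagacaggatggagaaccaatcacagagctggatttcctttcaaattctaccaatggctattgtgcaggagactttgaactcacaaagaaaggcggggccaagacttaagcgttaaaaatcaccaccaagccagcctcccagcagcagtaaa
Ldhc: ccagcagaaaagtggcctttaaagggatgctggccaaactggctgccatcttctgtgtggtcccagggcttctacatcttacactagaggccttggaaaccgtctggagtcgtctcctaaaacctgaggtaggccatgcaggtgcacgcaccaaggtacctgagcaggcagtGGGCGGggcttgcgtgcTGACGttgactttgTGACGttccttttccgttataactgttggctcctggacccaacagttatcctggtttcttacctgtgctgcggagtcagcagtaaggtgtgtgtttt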

How the data were processed

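Sperm RNA of TESA and CTRL males was measured 24 h and 46 days after the last injection. The authors trimmed the reads with Trim Galore and quantified them with Salmon 0.11.2 on GRCm38 transcripts, and deposited estimated counts per gene or repeat family, not normalized. Serum small RNA was not used here. All 7 TESA libraries of the 46-day table were used, while a figure legend of the study counts fewer TESA samples.

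Before testing, these estimates were rounded. Features with over 20 counts in at least 6 libraries (46 days) or 4 (24 h), 80% of the smallest group, were tested with edgeR 4.0.16 (R 4.3.3, quasi-likelihood test, TMM over all features, Benjamini-Hochberg adjustment over all tested features of a table, threshold 0.05). SE are the log2 fold change divided by the root of F, and 95% intervals use its t quantile; edgeR keeps a p no lower than that of a Poisson fit. Correlations used log2 CPM with a prior count of 2 and 100000 permutations (46 days) or exact tests (24 h). The alternatives used DESeq2 1.42.0, limma 3.58.1 (voom with quality weights) and edgeR. Python 3.11.15 with matplotlib 3.10.9 drew the plots from files written by R (data.table, version 1.17.8). Tests were checked on simulated data.

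Genes named were the 10 enzymes, their body forms, of each list the 3 highest by mean CPM and the one with the smallest unadjusted p in each table, and the 5 features most like the enzymes; 1 gene that this rule names is not reported here. The enzymes and lists were chosen with earlier results of these data known. Libraries 11 to 14 at 46 days were run alone, left out and given a term because their numbers run through TESA and CTRL anew after 1 to 10.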

Additional observations from a re-analysis of the deposited data

Results flagged for a closer look

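The levels of the 10 enzymes and their body forms were tested for a library far from the others of its group by Dixon's criterion. Of 58 groups tested 2 were found, where chance gives about 1 in 20, or 2.9. At 24 h Pgk1, the body form of phosphoglycerate kinase, stood at 33.6 CPM in TESA ai_1 (545 counts), with the nearest TESA library at 21.5 CPM. At 46 days Eno1, the body enolase, stood at 107 CPM in TESA KG8-12 (270 counts), with the nearest TESA library at 30.6 CPM. Neither is among the 10 enzymes.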

How the results depend on the processing

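The count of 0 glycolysis genes past an adjusted p of 0.05 held at 46 days and at 24 h under each alternative run: another test, scaling, filter or dispersion, each library left out in turn, libraries 1 to 10 or 11 to 14 alone, a term for libraries 11 to 14, and KG8-02 and KG8-12 left out together. Libraries 11 to 14 alone, the joint removal and the scaling to spermatid markers were chosen after seeing the data. Among all features, edgeR's exact test passed 14 at 46 days, 12 of them higher in TESA, against 0 by the quasi-likelihood test, DESeq2 and limma voom; at an unadjusted p under 0.05 these 4 gave 190, 152, 135 and 165. At 24 h the 4 passed 0 and gave 377, 372, 492 and 1022. For the difference between 46 days and 24 h, DESeq2 passed 14 and limma voom 20, against 0, and leaving out 1 library at a time gave 0 to 7, with 7 without TESA ai_1, 4 without TESA ai_3 and 2 without TESA ai_5. The median log2 fold change of the glycolysis genes at 46 days moved to -1.06 with library totals, where that of all features was -1.09, and otherwise by less than the spread between libraries.

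For the glycolysis genes no fold change was past the threshold in any setting, and some signs turned, that of Eno4 at 24 h (-0.57) and of Ldhc at 46 days (0.23) among them. With library totals Gapdhs was -0.99, Pgk2 -0.89 and Ldhc -0.72 at 46 days, and Ldhal6b 0.25 and Gpi1 0.21 at 24 h. With limma voom and quality weights Eno4 was 0.64 and Gpi1 0.0235 at 24 h. In libraries 1 to 10 alone Gapdhs was -0.0475 and Pgk2 -0.0622, and in libraries 11 to 14 alone Aldoart1 was 0.42 and Pgam2 0.0505. Without KG8-02 and KG8-12 Hk1 was 0.0641 and Gpi1 0.00303, and with spermatid marker scaling Ldhal6b was 0.0710 at 24 h. Leaving out 1 library at a time turned the sign, at 46 days, of Gapdhs (-0.0731 to 0.0742), Pgk2 (-0.0122 to 0.16), Aldoart1 (-0.18 to 0.0316), Pgam2 (-0.21 to 0.0278) and Hk1 (-0.19 to 0.00977), and at 24 h of Gapdhs (-0.0881 to 0.26), Pgk2 (-0.39 to 0.21), Ldhal6b (-0.26 to 0.18), Pgam2 (-0.0745 to 0.43), Eno4 (-1.02 to 0.36) and Gpi1 (-0.12 to 0.18). Without a turn of sign, Ldhc (0.0473 to 0.33) and Gpi1 (-0.18 to -0.0505) moved at 46 days, and Ldhc (-0.44 to -0.0186), Aldoart1 (-0.85 to -0.15), Hk1 (0.00897 to 0.34) and Pfkp (-0.91 to -0.14) at 24 h. The cause was not tested. No paired analysis was possible because TESA and CTRL libraries of the same time point share no replicate numbers. Counts of the glycolysis genes were fewest in KG8-02 and KG8-12 at 46 days.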
